A study of Mus musculus with 4 samples.

Results

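The 8 genes described here encode the metallothioneins Mt1 and Mt2, the transcription factor Mtf1 and the zinc or manganese transporters Slc30a1, Slc30a10, Slc39a4, Slc39a8 and Slc39a14. They were chosen by gene symbol, and all 8 of the 18193 genes on the array, with 19 probe sets, had a signal on every array. Liver RNA of C57BL/6J mice, 2 months old, was measured on 4 Affymetrix arrays, and ethylbenzene, an aromatic solvent, was compared with phosphate-buffered saline (PBS). E+E mice (5) received ethylbenzene in a first and a second exposure, P+E mice (5) PBS and then ethylbenzene, E+P mice (3) ethylbenzene and then PBS, and P+P mice (3) PBS at both. Mice were injected intraperitoneally, 2 times with 24 h between for the first exposure and again after 7 days, with 7 mmol of ethylbenzene per kg where given, and livers were taken 5 h after the last injection. Mice of a group were pooled for a single array, so no difference could be set against a spread between mice, and no p-value or standard error is given. Pool size followed the second exposure, and pool size and treatment cannot be told apart.

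Metallothioneins are small cysteine-rich proteins that bind zinc, copper and cadmium, and the liver is a main site of their induction by zinc, cadmium, glucocorticoids and cytokines. MTF-1, the product of Mtf1, is a zinc-sensing transcription factor that binds metal response elements in the metallothionein genes and in Slc30a1. SLC30 proteins move zinc, or in the case of SLC30A10 manganese, out of the cytosol, and SLC39 proteins bring metals into it. SLC39A14 is the importer known for zinc uptake by the liver in inflammation and for hepatic manganese uptake, and SLC39A8 is a related importer of both metals.

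To show what such elements look like in these genes, RefSeq promoters (assembly GRCm38.p6, 250 bases before to 50 after the annotated start) were searched on both strands for the metal response element core, spelled TGCACNC or TGCGCNC. The table held promoters for 6 of the 8 genes, with 2 for Slc39a8, and Slc39a14 and Slc39a4 were not among them. The 4 printed here belong to both metallothionein genes, which lie 6471 bases apart by their annotated starts, to the exporter gene with a higher signal after ethylbenzene and to Slc30a1, a known MTF-1 target that did not reach 2-fold. Capitals mark the core, and all 4 are shown 5′ to 3′ on the plus strand.
Mt1, chr8:94178839-94179138: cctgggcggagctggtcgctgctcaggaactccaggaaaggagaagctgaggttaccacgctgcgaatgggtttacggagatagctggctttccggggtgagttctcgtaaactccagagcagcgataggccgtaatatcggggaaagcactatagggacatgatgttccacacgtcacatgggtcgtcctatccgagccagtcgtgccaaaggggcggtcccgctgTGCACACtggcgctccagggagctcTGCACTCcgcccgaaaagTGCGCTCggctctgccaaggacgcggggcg
Mt2, chr8:94172368-94172667: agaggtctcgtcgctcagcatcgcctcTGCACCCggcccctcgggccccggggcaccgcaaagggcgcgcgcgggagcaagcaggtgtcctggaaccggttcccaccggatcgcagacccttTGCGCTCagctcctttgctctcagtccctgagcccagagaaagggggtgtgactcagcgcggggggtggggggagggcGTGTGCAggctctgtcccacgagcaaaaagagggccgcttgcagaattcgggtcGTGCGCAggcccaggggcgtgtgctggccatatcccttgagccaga
Slc30a10, chr1:185454598-185454897: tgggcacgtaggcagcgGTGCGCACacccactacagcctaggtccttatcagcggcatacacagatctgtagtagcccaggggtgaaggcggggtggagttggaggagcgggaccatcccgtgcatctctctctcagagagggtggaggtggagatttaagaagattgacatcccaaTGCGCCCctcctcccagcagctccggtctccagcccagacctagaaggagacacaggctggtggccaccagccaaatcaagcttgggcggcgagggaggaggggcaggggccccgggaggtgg
Slc30a1, chr1:191906531-191906830: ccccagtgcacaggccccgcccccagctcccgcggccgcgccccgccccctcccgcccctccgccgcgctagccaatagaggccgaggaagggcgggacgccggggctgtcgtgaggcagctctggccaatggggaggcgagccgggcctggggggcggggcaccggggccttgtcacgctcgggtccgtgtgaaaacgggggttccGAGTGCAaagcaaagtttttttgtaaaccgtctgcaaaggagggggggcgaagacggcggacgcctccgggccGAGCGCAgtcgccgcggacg
The core occurred 3 times in Mt1, 4 times in Mt2, 3 times in Slc30a10 (of which 2 overlapped on opposite strands) and 2 times in Slc30a1. It occurred 0 times in the Mtf1 window and 0 and 1 times in the 2 windows of Slc39a8. Of all 32851 promoters of this length, 25.7% held at least 1 core, 1.97% at least 3 and 0.517% at least 4. The antioxidant response element core TGACNNNGC was found 1 time each in Mt2, Slc30a1 and 1 Slc39a8 window, and 12.4% of all promoters held it. The STAT site TTCNNNGAA, held by 8.3% of all promoters, was in none of the 7 windows. A match is a description of letters in this window and not a bound site. Bases beyond each window were not searched, so the counts do not cover the whole regulatory region of a gene.

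Signals below are the authors' intensities after quantile normalization, and each gene is given by its brightest probe set. A log2 ratio is a difference of log2(signal + 43.2), and a gene was called higher or lower at 2-fold or more, a fixed rule of size. All 8 genes had a mean above the low-level filter, a signal of 120.0. The P+P array stood apart in its control probe sets, with a geometric mean deposited signal of the 18S ribosomal RNA probe sets of 182, 145 and 122 on E+E, P+E and E+P, against 1872 on P+P. The E+E over E+P ratios use no P+P value. Among markers of liver itself, the 6 hepatocyte genes were all within 2-fold in all 4 ratios, with summed signals between 796553 and 830272. Quantile normalization brings the brightest signals close together across arrays, so the closeness of these sums is partly made by it. As deposited, Alb had 196579 on E+E, 174671 on P+E, 156917 on E+P and 145040 on P+P. The deposited signals of the 6 genes were also within 2-fold in all 4 ratios. Of all 11513 genes past the filter, 8594 were within 2-fold in all 4 normalized ratios.

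Metallothionein transcripts were far more abundant on both arrays taken 5 h after ethylbenzene. Mt1 had a signal of 145878 on E+E and 145878 on P+E, against 12826 on E+P and 4799 on P+P. The signal was the same on E+E and P+E because quantile normalization gives equal ranks equal values, and as deposited it was 168645 and 150857. The Mt1 ratio was 30.1-fold for P+E over P+P and 11.3-fold for E+E over E+P. Mt2 had 70439 on E+E and 72015 on P+E, against 2907 on E+P and 1132 on P+P. Its ratios were 61.3-fold for P+E over P+P and 23.9-fold for E+E over E+P. For both genes the ethylbenzene arrays lay close together and far above both PBS-second arrays. On the same log2 scale the Mt2 ratios were 5.94 and 4.58, and without quantile normalization 5.98 and 4.72. The P+E over P+P ratios use the P+P array, whose control probe sets stood apart, and its part in them was not tested. P+E over E+P avoids that array but differs in both exposures, and was chosen after seeing the data. Its log2 values were 3.50 for Mt1 and 4.61 for Mt2.

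**Figure D1:**
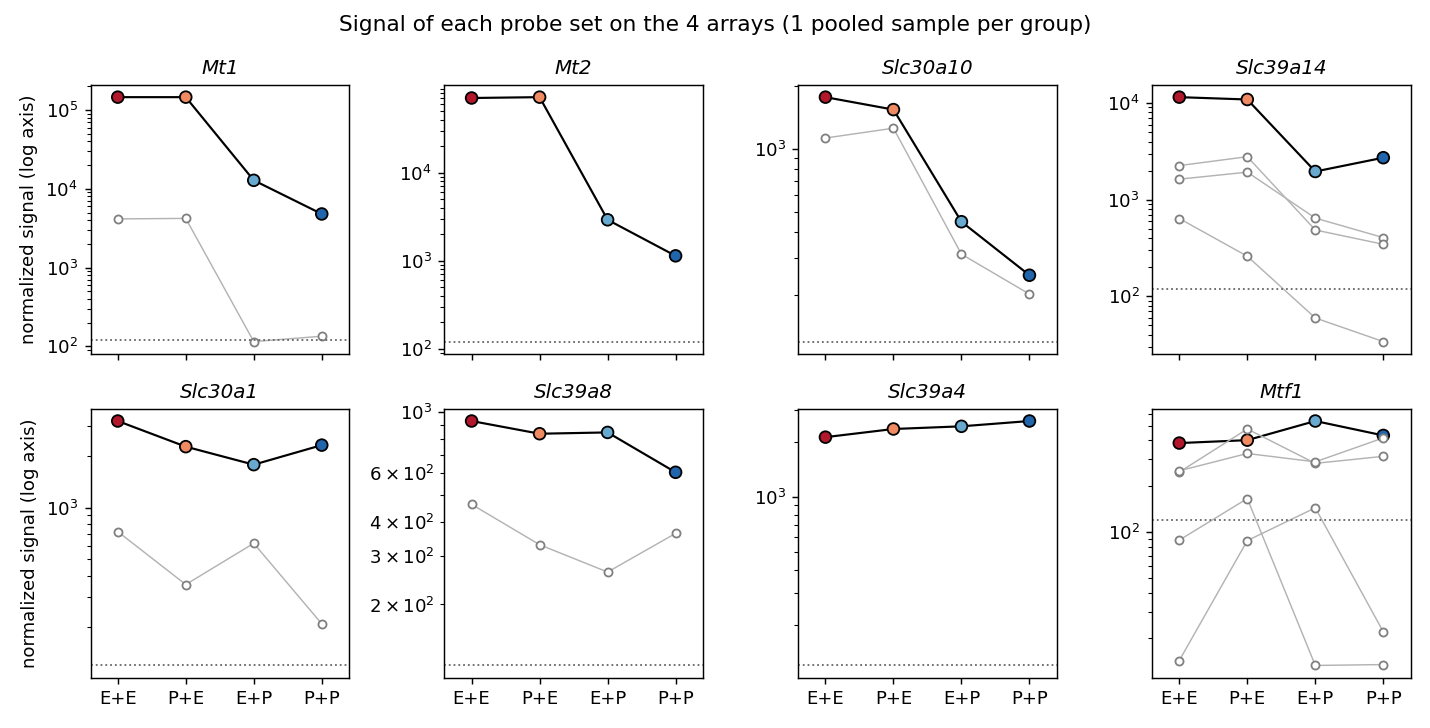
Normalized signal (log axis, scaled separately in each panel) of every probe set of the 8 genes on the 4 arrays, E+E, P+E, E+P and P+P from left to right. Filled points are the brightest probe set of a gene, open points the others, lines join 1 probe set, each point is 1 pooled array, and the dotted line is the filter level of 120.0. Mt1, Mt2, Slc30a10 and Slc39a14 sit higher on E+E and P+E than on E+P and P+P.

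The second Mt1 probe set was also far higher on both ethylbenzene arrays, at a lower signal. It had 4154 on E+E and 4214 on P+E, against 115 on E+P and 135 on P+P. The P+E over P+P ratio was 24-fold, and E+E was at least 25.7-fold higher than E+P with the E+P signal set to the filter level. On this probe set P+E over P+P was not the larger ratio, unlike on the brightest. Sequences of the metallothionein genes are alike, and the brightest Mt1 probe set is of a type that can match several transcripts, so the split of signal between Mt1 and Mt2 is uncertain.

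Transporter genes divided into 2 that were at least 2-fold higher after the second exposure and 3 that were not. Slc30a10, which encodes a manganese exporter, had 1763 on E+E and 1537 on P+E, against 448 on E+P and 249 on P+P. This was 5.41-fold for P+E over P+P and 3.68-fold for E+E over E+P, and its other probe set gave 5.28-fold and 3.27-fold. Slc39a14, the zinc and manganese importer, had 11516 on E+E and 10893 on P+E, against 1958 on E+P and 2720 on P+P. That was 3.96-fold for P+E over P+P and 5.78-fold for E+E over E+P. An exporter and an importer of manganese were both higher on both ethylbenzene arrays.

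All 4 probe sets of Slc39a14 reached 2-fold, upward, in each second-exposure ratio. Their log2 ratios were between 1.97 and 2.86 for P+E over P+P and between 1.28 and 2.73 for E+E over E+P. The dimmest of them was below the filter level on E+P and P+P, and with those signals set to that level its first ratio was 0.89, short of 2-fold.

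Slc30a1, Slc39a8 and Slc39a4 stayed within 2-fold in both second-exposure ratios. Slc30a1, the plasma membrane zinc exporter, had 3193 on E+E and 2263 on P+E, against 1778 on E+P and 2310 on P+P. Its log2 ratio was -0.03 for P+E over P+P and 0.83 for E+E over E+P. E+E was the highest of the 4 arrays and P+E lay between both PBS-second arrays. The other Slc30a1 probe set, with 724 on E+E and 356 on P+E, against 618 on E+P and 210 on P+P, gave 0.66 and 0.21, so the 2 probe sets disagreed on which background had the larger ratio.

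Slc39a8, the importer related to Slc39a14, had 929 on E+E and 835 on P+E, against 844 on E+P and 605 on P+P. Its log2 ratios were 0.44 for P+E over P+P and 0.13 for E+E over E+P on this probe set, and -0.12 and 0.73 on the other. Slc39a4, best known as the zinc importer of the intestine, had 2119 on E+E and 2348 on P+E, against 2429 on E+P and 2596 on P+P. Both of its ratios were slightly below 0, at -0.14 and -0.19.

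Mtf1 transcripts, which encode the zinc sensor, were within 2-fold on the 3 of 5 probe sets that passed the filter. The brightest probe set had 384 on E+E and 402 on P+E, against 536 on E+P and 431 on P+P. The log2 ratios were -0.09 for P+E over P+P and -0.44 for E+E over E+P. The other 2 past the filter had ratios of 0.54 and -0.16 and of -0.30 and -0.17. The remaining 2 were below the filter level on 3 of the 4 arrays and give no usable ratio.

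In all, 4 of the 8 genes (Mt1, Mt2, Slc30a10 and Slc39a14) were at least 2-fold higher in P+E over P+P, where 6.53% of the 11513 genes past the filter were. The same 4 were at least 2-fold higher in E+E over E+P, where the share of all genes was 6.91%, and 2.87% of all genes were higher in both. None of the 8 was at least 2-fold lower in either ratio, with 6.7% and 6.75% of all genes lower. The median log2 ratio of the 8 was 1.21 for P+E over P+P and 1.35 for E+E over E+P, beside -0.07 and -0.05 over all genes. Of the 17 member probe sets past the filter, 9 reached 2-fold upward in each ratio, including all 3 for the metallothioneins. The share was 2.78% of all probe sets with 1 symbol past the filter. Among the 9 was the dimmest Slc39a14 probe set, which passed the filter by its E+E and P+E signals. With its low signals at the filter level, its P+E over P+P log2 ratio was 0.89, short of 2-fold. Probe sets of 1 gene are not separate genes.

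**Figure D2:**
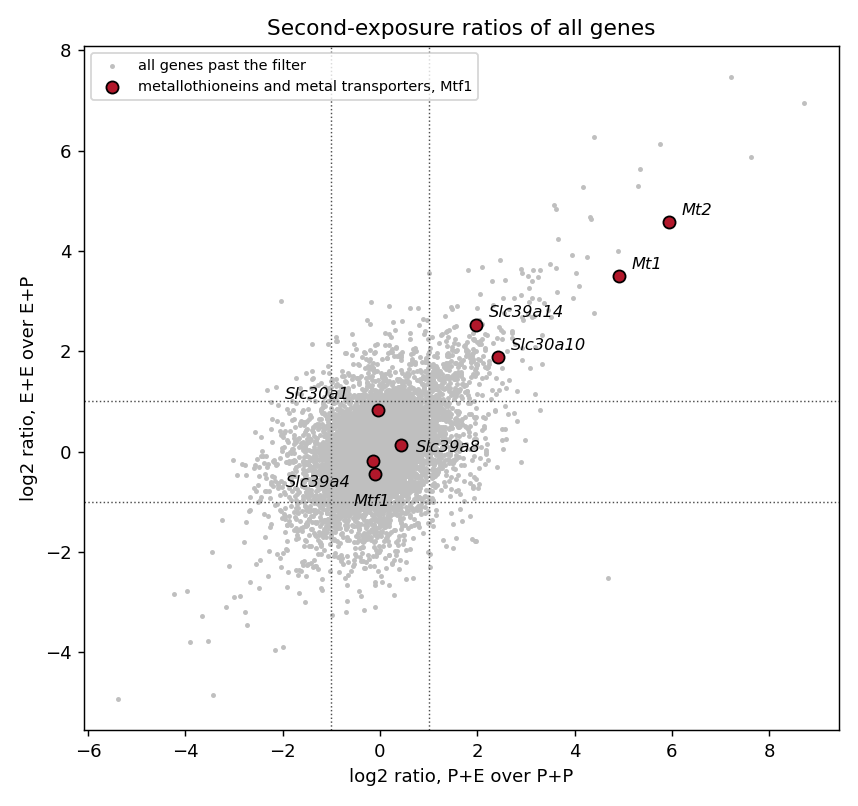
Log2 ratio of P+E over P+P (x axis) against E+E over E+P (y axis) for the 11513 genes past the filter (grey) and the 8 genes (red), each from 1 pooled array per group, with dotted lines at 2-fold. Mt1 and Mt2 lie among the highest genes on both axes, Slc39a14 and Slc30a10 lie past 2-fold on both, and the other 4 lie inside the 2-fold lines.

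Whether the first exposure alone left a difference was read from E+P over P+P, 7 days later. By this ratio Mt1 was 2.66-fold and Mt2 2.51-fold higher, and they were 2 of 8 genes at least 2-fold higher, where 2.58% of all genes were. For Mt1 this rested on the brightest probe set, since the other had 115 on E+P against 135 on P+P, and Mt2 has 1 probe set. Slc30a10 had a log2 ratio of 0.75 on its brightest probe set and 0.54 on the other, short of 2-fold. For Slc39a14 the brightest probe set was at -0.47 and the next 2 at 0.62 and 0.45, while the dimmest was below the filter level on both arrays. Slc30a1 was at -0.37, although its dimmer probe set was at 1.39. These ratios all use the P+P array, whose control probe sets stood apart. The Actb control probe sets had a geometric mean deposited signal of 30540 on E+E, 24573 on P+E and 22081 on E+P, against 8928 on P+P, and so differed between E+P and P+P in the same direction as Mt1 and Mt2. The part of the P+P array in these ratios was not tested.

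The same first exposure compared after ethylbenzene in the second, E+E over P+E, showed no call among the 8 genes by the brightest probe sets, with 7.96% of all genes at least 2-fold apart. The log2 ratios were 0.00 for Mt1, -0.03 for Mt2, 0.19 for Slc30a10, 0.08 for Slc39a14, 0.49 for Slc30a1, 0.15 for Slc39a8, -0.15 for Slc39a4 and -0.06 for Mtf1. The dimmest Slc39a14 probe set stood at 1.17. The difference of the 2 second-exposure ratios, E+E over E+P minus P+E over P+P, was -1.41 for Mt1 and -1.36 for Mt2. By arithmetic it equals E+E over P+E minus E+P over P+P, so for these genes it restates the E+P over P+P values with the sign turned and is no separate result. They were 2 of 8 genes with a difference of at least 1 downward, where 7.03% of all genes had one. On the second Mt1 probe set the ratios were 4.58 for P+E over P+P and, with the low E+P signal at the filter level, at least 4.68 for E+E over E+P. Slc30a10 was at -0.56 and Slc39a14 at 0.55, both under 2-fold, and Slc39a14 was at -0.07 when its probe sets were averaged. This difference holds the error of all 4 arrays and could not be tested.

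**Figure D3:**
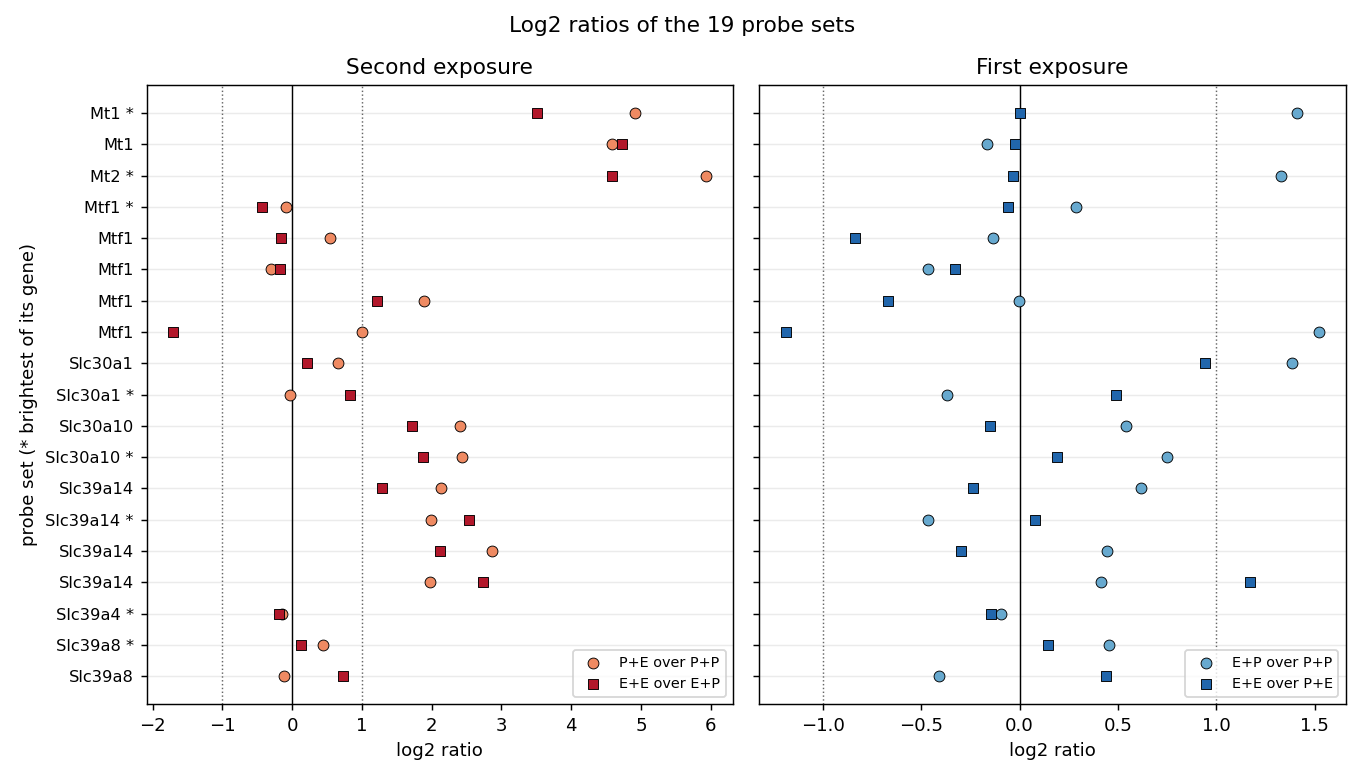
Log2 ratios (x axis) of all 19 probe sets, grouped by gene (rows, the brightest marked with a star), for the second exposure (left, P+E over P+P as circles and E+E over E+P as squares) and the first exposure (right, E+P over P+P as circles and E+E over P+E as squares). Each point is a ratio of 2 pooled arrays and dotted lines mark 2-fold. The probe sets of Mt1, Slc39a14 and Slc30a10 share a direction for the second exposure, while for E+P over P+P the 2 Mt1 probe sets stand at 1.41 and -0.17, the second with its E+P signal below the filter level.

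The remaining members of both transporter families served as a wider list. Of 19 other SLC30 and SLC39 genes with a probe set, 14 passed the filter, and all 14 stayed within 2-fold in all 4 ratios. So did 8594 of all 11513 genes past the filter, so staying within 2-fold was common. Their log2 ratios were between -0.85 and 0.30 for P+E over P+P and between -0.77 and 0.68 for E+E over E+P, with medians of -0.08 and 0.10. Slc39a10, a zinc importer gene that MTF-1 is known to repress, had 165 on E+E and 131 on P+E, against 99.1 on E+P and 209 on P+P. Its ratios pointed opposite ways, at -0.53 and 0.55. Slc30a10 and Slc39a14 were the members of the 2 families past 2-fold in both ratios among those measured above the filter.

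The other metallothionein genes, Mt3 and Mt4, known from brain and from stratified epithelium, did not pass the filter. Mt3 had 29.2 on E+E and 180 on P+E, against 145 on E+P and 58.3 on P+P, and Mt4 had 67.3 on E+E and 176 on P+E, against 87 on E+P and 44.1 on P+P. Their signals were low and followed neither exposure on both arrays. Of all 11513 genes past the filter, 8594 stayed within 2-fold in all 4 ratios. Among 15 other genes of manganese, copper and zinc-copper enzyme handling past the filter, 14 did so. The exception was Slc11a2, the DMT1 importer of iron and manganese, with 868 on E+E and 699 on P+E, against 412 on E+P and 412 on P+P. Its log2 ratio was 0.70 for P+E over P+P and 1.001 for E+E over E+P, at the edge of the size rule. Atp2c2, a further member of that list, was below the filter level on all 4 arrays. Atp7b, the hepatic copper exporter, was at -0.82 and -0.55, and Sod2, the manganese superoxide dismutase, at 0.07 and 0.38.

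**Figure D4:**
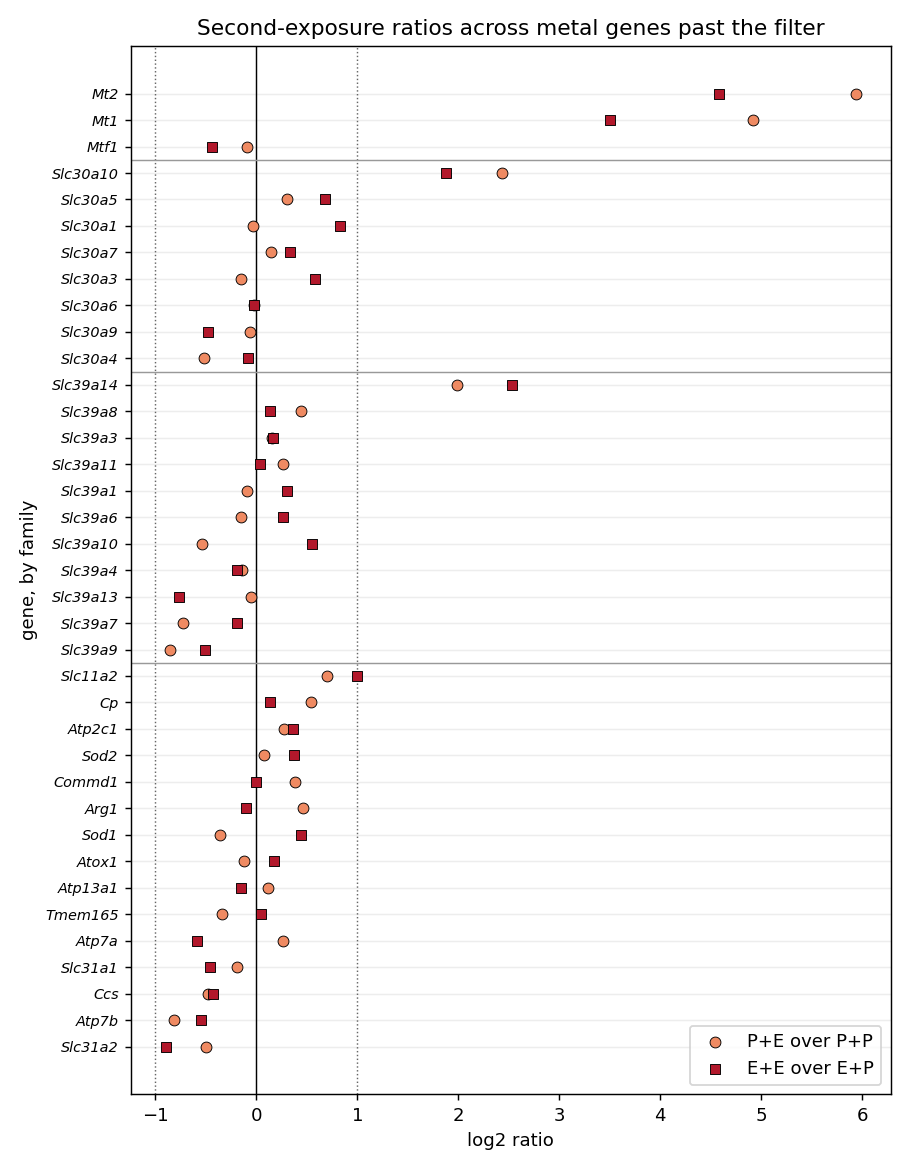
Second-exposure log2 ratios (x axis) of metal genes past the filter (rows), in blocks for metallothioneins with Mtf1, SLC30 genes, SLC39 genes and other metal handling genes, with P+E over P+P as circles and E+E over E+P as squares. Dotted lines mark 2-fold and each point is a ratio of 2 pooled arrays. Beyond Mt1, Mt2, Slc30a10 and Slc39a14, only the E+E over E+P point of Slc11a2 reaches the line, at 1.001.

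Genes of pathways known to act on metallothionein transcription were listed beside them. Of 10 past the filter, Stat3, Socs3 and Hmox1 were past 2-fold upward in both second-exposure ratios, beside 2.87% of all genes. Tsc22d3 was lower in both, at -3.16 and -3.10, as were 214 of all 11513 genes past the filter. Tsc22d3 and Fkbp5 are both typical glucocorticoid-induced genes, and Fkbp5 was at 0.37 and 0.32. Socs3, a feedback inhibitor of cytokine signals, was at 4.03 and 3.56, and Hmox1, which degrades heme, at 3.15 and 3.61. Stat3, which carries the interleukin-6 signal to the nucleus, had 7549 on E+E and 6923 on P+E, against 2335 on E+P and 1466 on P+P. Its log2 ratios were 2.21 for P+E over P+P and 1.67 for E+E over E+P. Il6st, the shared receptor subunit, was at 0.92 and 0.59, Il6ra at -0.06 and -1.02, and Nr3c1, the glucocorticoid receptor, at -0.50 and -0.41. Il6 itself was below the filter level on all 4 arrays. Nfe2l2, the gene of NRF2, was at -0.61 and -0.49, and its target Nqo1 at -0.21 and 0.18.

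By Euclidean distance over the 4 centred log2 signals, among 3306 other genes with a range of at least 2-fold, the genes most like Mt1 were Igfbp1, an insulin-like growth factor binding protein, Gadd45a, Socs3, Orm2 and 2010003K11Rik, at distances of 0.43 to 0.69. Mt2 ranked 9, at 1.05. Most like Slc39a14 was Leap2, a liver-expressed peptide gene, with 14818 on E+E and 14162 on P+E, against 2518 on E+P and 3282 on P+P, at a distance of 0.09. Ptpn2, a tyrosine phosphatase, Snhg5, Slc25a47 and Akap2 followed at 0.19 to 0.23. For Slc30a10 the closest was Stat3 at 0.23, followed by Col4a1, Mrap, Pim1 and Lrg1 at up to 0.33. Each gene was compared by its brightest probe set. For E+P over P+P, the Mt1 probe sets were at 1.41 (brightest) and -0.17. The brightest of Slc39a14 was at -0.47, with others at 0.62 and 0.45, so another probe set could give other neighbours. With 4 arrays such a likeness is a description.

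Markers of other cell types also moved with the second exposure. Of 8 measured pancreatic acinar genes, 7 reached 2-fold upward in each ratio, where 2.87% of all genes past the filter did. The summed signal of the 8 was 7917 on E+E and 7783 on P+E, against 2568 on E+P and 2994 on P+P. None was at 0, and 5 of the 8 on E+P and 4 on P+P lay below the filter level. Ctrb1, Cpa1 and Cpb1 were below it on both of these arrays, Cela2a and Cela3b on E+P, and Clps on P+P. These genes passed the filter by their E+E and P+E signals, so the size of their ratios is uncertain. The filter favours such genes, so the count of 7 beside the 2.87% is a description. Slc30a2 and Slc39a5, transporter genes typical of acinar cells, were below the filter level on all 4 arrays, at 16.4 and 31.5 on E+E and 105 and 114 on P+E, against 85.6 and 37.1 on E+P and 33.3 and 51.4 on P+P. The 6 neutrophil genes summed to 6317 on E+E and 3972 on P+E, against 518 on E+P and 1147 on P+P. S100a8 and S100a9 carried most of the sum on E+E and P+E. They were the 2 of 4 past the filter that were higher in both ratios, beside the same 2.87% of all genes. The other 2 were at -0.89 (Ngp) and -1.51 (Camp) for P+E over P+P and at 1.33 and 0.05 for E+E over E+P. S100a9 had 70.3 on E+P and 125 on P+P and passed the filter by its E+E and P+E signals. S100a8 was below the filter level on P+P, at 116. The size of their ratios is uncertain, and their count beside the 2.87% is a description. The 6 Kupffer cell genes summed to 10508 on E+E and 8752 on P+E, against 16567 on E+P and 10237 on P+P, with none higher in both. The islet genes were all below the filter level except Slc30a8 on E+E (187), and the intestinal genes Fabp2 and Lgals4 were within 2-fold. The part of these cells in the metallothionein and transporter signals was not tested. In RNA from whole tissue, a different number of cells of a type and a different amount of RNA per cell cannot be told apart.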

How the data were processed

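Per the labels, biotinylated cRNA was made from 10 μg of RNA pooled by group and hybridized to 1 array per group, 4 in all. The deposited file holds a linear intensity for each of 45101 probe sets, already scaled by the authors, since the mean without the lowest and highest 2% was 500.0 on every array. The software used was not given in the sources used here. Groups were taken from the sample titles. Median signals still differed (152.0, 153.1, 134.1 and 129.9 on E+E, P+E, E+P and P+P), so the deposited intensities were quantile-normalized and expressed as log2(signal + 43.2), the 25th percentile of all signals. This understates ratios of dim genes and compresses those of the brightest.

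Symbols came from the platform annotation, updated by Entrez identifier (34945 probe sets had 1 symbol, 932 several, 9160 none listed). The brightest probe set stood for a gene, and 11513 of 18193 genes passed the filter at the median of all probe sets. With 1 array per group no test was run, and the number of arrays limits the precision. A fit of both exposures without their interaction would leave 1 residual degree of freedom and count the difference of ratios as noise. P+E over P+P and E+P over P+P share the P+P array, and other pairs share arrays likewise. Named genes were all 8 members, genes of the metal lists at least 2-fold apart in any ratio, listed inputs to metallothionein genes and the 5 genes nearest to Mt1, Slc39a14 and Slc30a10, and some further listed genes were named after their values were seen. The members and lists were chosen with earlier results of these data known. Steps were tested on simulated data. Alternatives were the normalization, pseudocount, probe set choice and filter. Python 3.11.15, numpy 2.4.6, pandas 2.3.3, scipy 1.17.1 and matplotlib 3.10.9 were used.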

Additional observations from a re-analysis of the deposited data

Results flagged for a closer look

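On its brightest probe set, the zinc exporter gene Slc30a1 had second-exposure ratios of opposite sign in the 2 backgrounds, 1 of them close to 0. Its log2 ratio was 0.83 for E+E over E+P, in mice given ethylbenzene first, and -0.029 for P+E over P+P, in mice given PBS first. Each ratio rests on 2 pooled arrays, and the difference was not tested. On the other Slc30a1 probe set both ratios were above 0, at 0.21 and 0.66. With averaged probe sets they were 0.52 for E+E over E+P and 0.31 for P+E over P+P, so the opposite sign did not hold.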

How the results depend on the processing

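The count of 4 genes at least 2-fold higher in each second-exposure ratio was the same under each of these alternatives: signals as deposited, a common 75th percentile, a smaller or larger pseudocount, averaged probe sets, no _x_at or _s_at probe sets, low signals at the filter level and the other filters. It was also 4 for P+E over E+P, an alternative chosen after seeing the data that avoids the P+P array. These 2 groups differ in the first exposure as well as the second. The count of 2 for E+P over P+P and of 2 for the difference of ratios became 1 and 1 with averaged probe sets and 1 and 1 without _x_at and _s_at probe sets, since Mt1 then left them. Its E+P over P+P value was then 0.62 and -0.17 and its difference of ratios -0.63 and 0.15 (the second of each pair with an E+P signal below the filter level), while Mt2 stayed between 1.29 and 1.34 and between -1.38 and -1.23. No gene of the 8 was past 2-fold in E+E over P+E under any alternative.

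Counts over all genes at least 2-fold apart depended on the filter. In the order P+E over P+P, E+E over E+P, E+P over P+P, E+E over P+E and difference of ratios, they were 1523, 1573, 611, 917 and 1739, against 618, 668, 72, 94 and 306 at the 75th percentile and 3620, 3646, 2512, 3047 and 4676 with no filter. E+P over P+P gave 393 with a larger pseudocount, 393 with averaged probe sets and 280 with low signals at the filter level, and E+E over P+E gave 587 and 505 with the last 2. No paired analysis was possible because the labels number no replicates and the pools hold different mice; the ratios within each first exposure are given instead. Leaving out an array would remove a whole group.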
